A study of Sus scrofa with 12 samples.

Results

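The liver transcripts of peroxisomal oxidation and of the peroxins were compared between pigs given pivalate and control pigs. A list of 23 genes covered fatty acid import into the peroxisome, beta- and alpha-oxidation, the peroxisomal steps of ether lipid synthesis, and associated proteases and mevalonate pathway enzymes. Every gene whose symbol is PEX followed by a digit was added. By symbol, 21 of the 23 listed genes and 14 PEX genes were found on the array, which gave 35 genes among 25385 transcript clusters tested. ABCD4 and LONP2 were not found by name. Of the 35 genes, 27 carried the symbol in the annotation column for gene symbols and 8 were named through an mRNA entry of the annotation. All of these 8 (EHHADH, HSD17B4, PHYH, ABCD3, PECR, HAO1, AGPS and FAR1) are marked there as open to cross-hybridisation, so related transcripts can add to their signal.

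The animals were 12 male piglets, crosses of Pietrain with German Landrace x German Edelschwein, 5 weeks old at the start. All ate the same diets for 28 days and were killed after a meal. Group PIV (n = 6) received 30 mg sodium pivalate per kg body weight by mouth each day in a NaHCO3 solution, and group CON (n = 6) received that solution without pivalate. Whole liver was measured with 1 Affymetrix porcine gene array for each pig, so transcripts of all liver cells were mixed, and fewer cells of a type and less RNA per cell cannot be told apart. Values are log2 signals, on which a difference of 1 is a doubling, and log2 FC stands for group PIV minus group CON. Pigs are named by the letters and numbers of the labels, K for group CON and P for group PIV. Replicates were separate animals, and pigs were kept in pairs whose pens are not in the labels, so the tests take each pig as independent.

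Peroxisomes shorten very-long-chain and branched fatty acids and bile acid precursors that mitochondria do not take as such, and they cut the carboxyl carbon from phytanic acid, whose methyl branch otherwise blocks beta-oxidation. The acyl-CoA enters through ABC half-transporters, an oxidase that hands electrons to oxygen starts each cycle, and shortened products can leave as carnitine esters. Peroxins build the organelle: receptors bind enzymes carrying a targeting signal, a docking complex and RING ubiquitin ligases pass them in and recycle the receptor, and another set inserts membrane proteins or divides the organelle. Pivalate, a short branched acid, leaves the body as pivaloylcarnitine and thereby drains carnitine, and the comparison addresses whether hepatic transcripts differ in that state.

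Transcripts of the peroxisome differed little between the groups. The filter of the study, an unadjusted p under 0.05 together with a FC of more than 1.2 up or down, was passed by 2 of the 35 genes with the moderated p of limma, and by 1, HACL1, with the methods' t-test. The genes past it with limma were HACL1, which cleaves 2-hydroxyacyl-CoAs in alpha-oxidation and was lower in group PIV, and ABCD3, an ABC half-transporter of the peroxisomal membrane, which was higher. None of the beta-oxidation enzymes, the ether lipid enzymes or the peroxins passed. With limma, 1.82% of all clusters tested passed the filter, 1.03% with a higher and 0.788% with a lower signal in group PIV. Of the 35 genes 5.71% passed with limma, a share that rests on 2 genes. The genes were chosen with earlier results of these data known, so this share is no test of the set. The share of all clusters is not given here for the methods' t-test. An unadjusted limma p under 0.05 was found for the same 2 genes, and for 3.63% of all clusters. After Benjamini-Hochberg adjustment over all clusters no gene passed 0.05 (0.0% of clusters), and with limma the lowest adjusted p of the 35 genes was 1.0. The log2 FC was above 0 in 21 genes and below 0 in 14, with a median of 0.01 and a range from -0.37 to 0.33, and the median over all clusters was also 0.01. In no gene did the groups separate without overlap, which they did in 0.158% of all clusters. For 18 of the 35 genes the 95% interval of the log2 FC lay within a 1.2-fold change either way, as it did for 35.2% of all clusters.

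HACL1 (chromosome 13, 2206844 to 2258213 in the annotation, for which no source used here names a genome build) was read by a cluster of 32 probes. Its log2 signals in group CON were 7.40 in K1, 6.62 in K3, 7.25 in K4, 7.48 in K22, 7.06 in K23 and 7.02 in K42. In group PIV they were 6.89 in P10, 6.94 in P12, 6.46 in P29, 6.70 in P30, 6.66 in P31 and 6.96 in P50. The groups overlapped through 1 control pig, K3, whose signal lay below that of 5 treated pigs, while the other control pigs were all above every treated pig. The means were 7.14 ± 0.31 (CON) and 6.77 ± 0.19 (PIV; SD, n = 6), a log2 FC of -0.37 (SE 0.13, 95% interval -0.65 to -0.08) or a FC of -1.29. The unadjusted limma p was 0.0144 and the exact two-sided permutation p 0.0325, where 0.00216 is the smallest this design allows. HACL1 stayed past the filter whichever of the 12 pigs was left out. Without K3, the only pig behind the overlap, the groups necessarily separated, and the log2 FC was -0.47. In that fit 0.272% of all clusters separated.

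Neither PHYH, an alpha-oxidation enzyme like HACL1, nor HAO1, grouped here for its 2-hydroxyacid substrates, passed the filter. PHYH, the hydroxylase that acts on phytanoyl-CoA before HACL1, ranged in group CON from 9.49 to 9.85 with a median of 9.70, and in group PIV from 9.52 to 10.01 with a median of 9.64. The log2 FC of PHYH was 0.01 (95% interval -0.21 to 0.22), and 2 treated pigs lay above every control pig. HAO1, the 2-hydroxyacid oxidase of liver that turns glycolate into glyoxylate, had a mean of 8.69 ± 0.14 in control and 8.85 ± 0.15 in treated pigs, a log2 FC of 0.16 with an exact permutation p of 0.0801.

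Of the import and activation genes, ABCD3 carried the highest log2 FC among the 35 genes. Its log2 signals in group CON were 7.23 in K1, 7.21 in K3, 6.92 in K4, 7.77 in K22, 7.19 in K23 and 7.09 in K42. In group PIV they were 7.31 in P10, 7.40 in P12, 7.63 in P29, 7.62 in P30, 8.04 in P31 and 7.41 in P50. Here too a single control pig, K22, made the groups overlap, since the other 5 control pigs lay below every treated pig. The means were 7.23 ± 0.29 (CON) and 7.57 ± 0.26 (PIV), a log2 FC of 0.33 (SE 0.14, 95% interval 0.04 to 0.63) or a FC of 1.26. The unadjusted limma p was 0.0303 and the exact permutation p 0.0584. ABCD3 left the filter in 5 of the 12 fits without 1 pig, those without K4, K42, P29, P30 or P31, with unadjusted limma p from 0.0511 to 0.0828. It also left with the methods' t-test. Without K22, the only pig behind the overlap, the groups necessarily separated, and the log2 FC was 0.44. In that fit 0.335% of all clusters separated. The cluster of 24 probes is named through an mRNA entry and has no chromosome in the annotation.

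**Figure D1:**
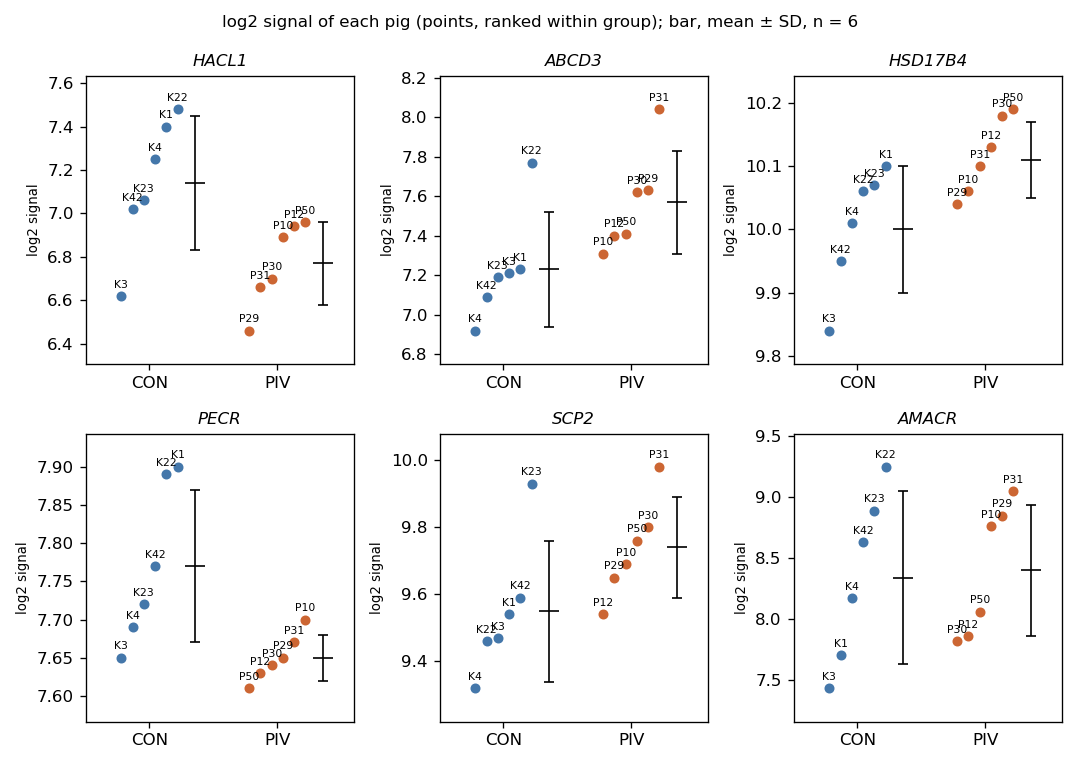
log2 signals (vertical axes) of HACL1, ABCD3, HSD17B4, PECR, SCP2 and AMACR in each pig, with points ranked within group CON and group PIV and bars for the mean ± SD of 6 pigs; the vertical axes differ between panels and do not start at 0. In HACL1 the pig K3 (6.62) and in ABCD3 the pig K22 (7.77) were the control pigs that overlapped with group PIV.

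SLC27A2, the very-long-chain acyl-CoA synthetase that takes up and activates fatty acids, ranged from 7.64 to 8.24 (median 7.81) in group CON and from 7.76 to 8.25 (median 7.95) in group PIV. Nearly the whole ranges coincided, and the log2 FC was 0.11 (95% interval -0.14 to 0.35). ABCD2, the half-transporter for very-long-chain acids, had means of 1.86 and 1.82 in groups CON and PIV and stayed under a log2 signal of 5 in every pig.

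The beta-oxidation enzymes, 9 genes, had a median log2 FC of 0.06, with 7 above 0 and 2 below 0, and none passed the filter. SCP2, whose long form is the thiolase for branched acyl-CoAs, had the highest log2 FC of these, with values from 9.32 to 9.93 (median 9.51) in group CON and from 9.54 to 9.98 (median 9.73) in group PIV. Its log2 FC of 0.19 (95% interval -0.03 to 0.40) had an exact permutation p of 0.110, and the control pig K23 lay above 5 of the treated pigs. EHHADH, the L-bifunctional protein of straight-chain oxidation, was at 9.73 ± 0.15 in control pigs and 9.81 ± 0.08 in treated pigs, a log2 FC of 0.08. ACAA1, the thiolase of straight-chain acids, had the same mean of 8.79 in both groups (log2 FC 0.00, 95% interval -0.20 to 0.20). The oxidases ACOX2, which acts on bile acid precursors, and ACOX3, which acts on branched acyl-CoAs, gave log2 FC of 0.06 and 0.04. DECR2, the dienoyl-CoA reductase for polyunsaturated acids, gave -0.06.

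Small differences with little spread between pigs were seen for HSD17B4 and PECR. HSD17B4, the D-bifunctional protein that serves branched acids and bile acid precursors, ranged from 9.84 to 10.10 (median 10.03) in group CON and from 10.04 to 10.19 (median 10.11) in group PIV. Of the treated pigs 3 lay above every control pig, and the log2 FC was 0.11 (SE 0.07), a FC of 1.08. PECR, a peroxisomal trans-2-enoyl-CoA reductase, ranged from 7.65 to 7.90 (median 7.74) in group CON and from 7.61 to 7.70 (median 7.65) in group PIV. Of the treated pigs 3 lay below every control pig, and the log2 FC was -0.12 (SE 0.07), a FC of -1.09. Exact permutation p-values were 0.0411 for HSD17B4 and 0.0173 for PECR, while the moderated limma p-values were 0.141 and 0.113. With the methods' t-test the unadjusted p-values were 0.0404 for HSD17B4 and 0.0236 for PECR. The FC of both genes stayed inside the 1.2-fold limit, so neither passed the filter with that test. limma raises the variance of clusters whose spread is far below the rest, and the residual SD of these genes lay at the percentiles 1.8 and 1.2 of all clusters. Over the 35 genes an unadjusted exact permutation p under 0.05 was found for 3, HACL1, HSD17B4 and PECR, a share of 8.57% beside 3.64% of all clusters. That share too is no test of the set, since the genes were chosen with earlier results of these data known.

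AMACR, the racemase that makes branched acyl-CoAs fit for the oxidases, stood apart by its spread between pigs and not by group. It read 7.70 in K1, 7.43 in K3, 8.17 in K4, 9.25 in K22, 8.89 in K23 and 8.63 in K42. In group PIV it read 8.76 in P10, 7.86 in P12, 8.85 in P29, 7.82 in P30, 9.05 in P31 and 8.06 in P50. Each group thus held 3 pigs at or under 8.17 and 3 pigs at or above 8.63, with the widest step between neighbouring pigs, 0.46, between these values. The range over 12 pigs was 1.82, and the residual SD of 0.63 lay at the percentile 99.5 of all clusters. The log2 FC was 0.06 (SE 0.30) with a 95% interval from -0.57 to 0.69, an interval that includes the -0.37 of HACL1.

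Ether lipid synthesis begins in the peroxisome with GNPAT and AGPS, and FAR1 supplies the fatty alcohol. The log2 FC of these 3 genes were 0.04, 0.04 and 0.03. AGPS ranged from 6.68 to 7.47 (median 6.90) in group CON and from 6.75 to 7.23 (median 7.05) in group PIV, and a second AGPS cluster of lower signal gave a log2 FC of -0.11. GNPAT and FAR1 had means between 4.74 and 4.94. IDE, the insulin-degrading protease that carries a peroxisomal targeting signal, ranged from 6.67 to 7.15 (median 6.91) in group CON and from 6.64 to 7.00 (median 6.88) in group PIV, a log2 FC of -0.04. Its second cluster gave -0.03. MVK, mevalonate kinase, ranged from 7.56 to 8.44 (median 8.13) in group CON and from 7.88 to 8.44 (median 8.23) in group PIV, a log2 FC of 0.10. PMVK, the next kinase of the mevalonate pathway, had means of 6.39 and 6.34. In none of these genes did the groups separate.

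**Figure D2:**
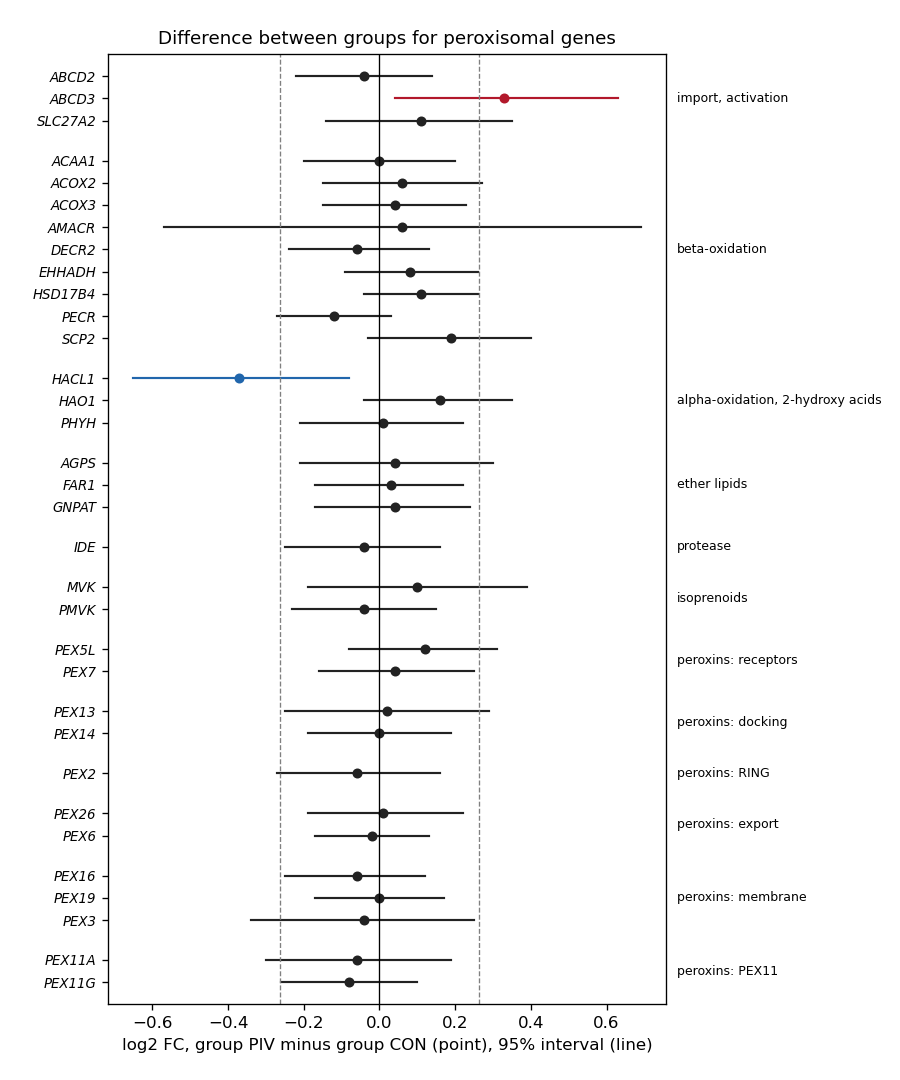
log2 FC (points) with 95% interval (lines) of the genes reported by name, by role, where dashed lines stand at the 1.2-fold limits and coloured lines mark the genes past the filter. Only HACL1 (-0.37) and ABCD3 (0.33) lie beyond a dashed line, and AMACR has the widest interval (-0.57 to 0.69).

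The 14 PEX genes had log2 FC from -0.10 to 0.12, a median of -0.01, 6 above 0 and 8 below 0. None had a limma or exact permutation p under 0.05, which 3.63% (limma) and 3.64% (exact permutation) of all clusters had. With 14 genes, 0 is near these shares. The 95% intervals of the PEX genes all lay between -0.34 and 0.31. For 8 of the 14 the interval lay within a 1.2-fold change, as it did for 35.2% of all clusters.

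For import of matrix enzymes, PEX7, the receptor for the less common targeting signal, ranged from 4.46 to 4.90 (median 4.74) in group CON and from 4.58 to 5.06 (median 4.76) in group PIV, a log2 FC of 0.04. PEX5L, a relative of the receptor PEX5 that is known from neurons and not as a peroxin of liver, had means of 3.02 and 3.14 and was below a log2 signal of 5 in every pig. The docking proteins PEX13 and PEX14 gave log2 FC of 0.02 and 0.00, where PEX14 ranged from 5.33 to 5.87 (median 5.71) in group CON and from 5.53 to 5.74 (median 5.69) in group PIV. PEX13 ranged from 5.39 to 6.01 (median 5.59) in group CON and from 5.22 to 5.89 (median 5.77) in group PIV, with P50 lowest. PEX2, a RING ubiquitin ligase, ranged from 4.94 to 5.50 (median 5.14) in group CON and from 4.88 to 5.26 (median 5.13) in group PIV, a log2 FC of -0.06. PEX6, the ATPase that pulls the receptor out of the membrane, gave -0.02 with a range of only 0.22 over all pigs. Its membrane anchor PEX26 ranged from 5.17 to 5.72 (median 5.34) in group CON and from 5.23 to 5.57 (median 5.39) in group PIV, a log2 FC of 0.01. None of these genes separated the groups.

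PEX5, the receptor for the common targeting signal, was named only through an mRNA entry and so does not count among the 14. Its means were 5.13 and 5.06 in groups CON and PIV, a log2 FC of -0.08. The PEX5 cluster has 9 probes and is also marked as open to cross-hybridisation. Its log2 signal was 5 or more in 9 of the 12 pigs.

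The membrane assembly genes PEX3, PEX16 and PEX19 gave log2 FC of -0.04, -0.06 and -0.00. PEX19, the chaperone of peroxisomal membrane proteins, ranged from 7.51 to 7.84 (median 7.79) in group CON and from 7.57 to 7.82 (median 7.78) in group PIV, with a 95% interval of -0.17 to 0.17. PEX3, its docking partner, was lowest in the treated pig P10 at 6.73 and otherwise had similar means, 7.31 ± 0.23 and 7.26 ± 0.30. PEX11A and PEX11G, of a family that elongates the organelle before it divides, gave log2 FC of -0.06 and -0.08, and neither passed a test.

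**Figure D3:**
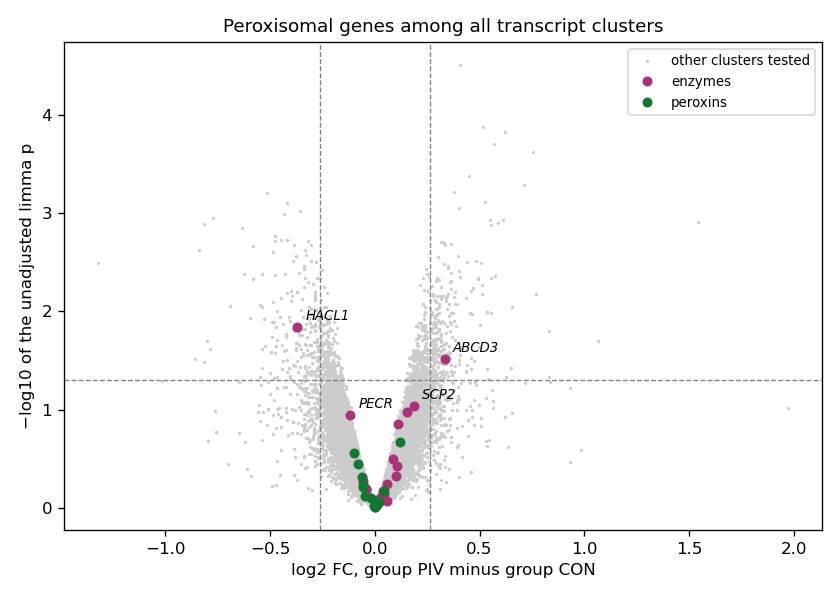
log2 FC (horizontal axis) against −log10 of the unadjusted limma p (vertical axis) for the 35 genes and all other clusters tested, with dashed lines at the limits of the filter. HACL1 and ABCD3, drawn with the enzymes, lie past the limits. Every PEX gene, drawn as peroxins and including PEX5L at 0.12, lies between a log2 FC of -0.10 and 0.12.

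Pigs differed from each other across several of these genes. The mean deviation of the 21 enzymes from their gene means ran from -0.16 in K3 to 0.11 in K22 within group CON, and from -0.08 to 0.10 within group PIV. Deviations of the PEX genes ran from -0.05 to 0.08 in control pigs and from -0.10 to 0.05 in group PIV. K22 was the highest or the lowest of the 12 pigs in 14 of the 35 genes (40.0%), and in 30.5% of all clusters. K3 was so in 10 genes (28.6%), beside 17.8% of all clusters. These were the control pigs through which the groups overlapped in ABCD3 and HACL1, and K22 also had the lowest array weight of the 12, 0.52. The part of these pigs in the results was not tested beyond the fits without each.

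**Figure D4:**
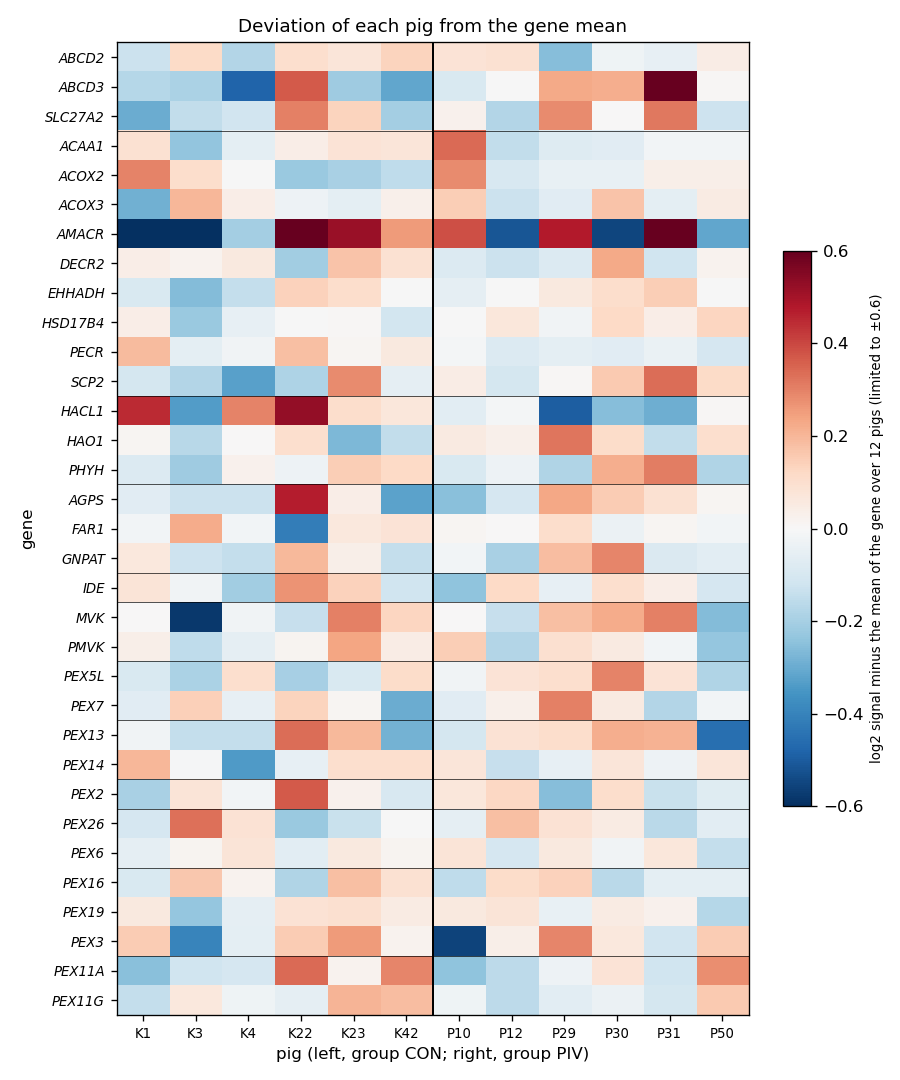
Log2 signal of each pig minus the mean of the gene over 12 pigs (colour, limited to 0.6 either way) for the genes reported by name (rows, by role) and the pigs of group CON (left) and group PIV (right). AMACR shows high and low pigs in both groups.

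A further list of peroxisomal genes, chosen for function, covered hydrogen peroxide handling, carnitine and CoA ester handling, amino acid and polyamine oxidases, and membrane and division proteins. Of its 41 genes, 37 were measured and none passed the filter or had an unadjusted limma p under 0.05. Of all clusters 1.82% passed the filter and 3.63% had such a p, so 0 of 37 is near these shares. The median log2 FC of the 37 genes was 0.03, with 22 above 0 and 15 below 0 and a range from -0.15 to 0.22. The lowest limma p-values of the list were 0.0939 for GSTK1, a glutathione transferase of peroxisomes and mitochondria (log2 FC -0.15), and 0.129 for PAOX, a polyamine oxidase (-0.15). They were followed by 0.151 for NUDT7, a CoA diphosphatase (0.12), and 0.183 for FAR2, a fatty acyl-CoA reductase (0.12). CAT, catalase, had a log2 FC of 0.04. CROT and CRAT, which make the carnitine esters that leave the peroxisome, gave log2 FC of 0.11 and 0.03 with unadjusted limma p of 0.473 and 0.799. The regulators PPARA, which induces peroxisomal oxidation in rodent liver, its partner RXRA and the coactivator PPARGC1A gave -0.05, -0.05 and -0.08. The deposited annotation gave a peroxisome term under cellular component to 34 clusters, 16 of them among the 35 genes. None of the 34 passed the filter, which 1.82% of all clusters did, so 0 of 34 is near that share. HACL1 and ABCD3 did not carry the peroxisome term.

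Hepatocyte markers, 7 genes, had a mean log2 signal per pig of 11.99 to 12.13 among control pigs and 12.08 to 12.13 among treated pigs. None of the genes of the Kupffer, bile duct, stellate, endothelial, T, B or erythroid marker lists passed the filter, which 1.82% of all clusters did. T cell markers, 3 genes, had per-pig means of 4.71 to 5.50 among control pigs and 4.99 to 5.67 among treated pigs. Their median log2 FC was 0.27. Stellate markers, 4 genes, had per-pig means of 5.70 to 6.56 and 5.65 to 6.88, with a median log2 FC of 0.19. Of these, COL3A1 was at -0.22, and DCN, LUM and RGS5 were at 0.14, 0.25 and 0.34. The part of these markers in the results was not tested. Median log2 signals of the arrays ran from 4.75 to 4.88, and arrays correlated with each other at 0.977 to 0.991. Of the 35 genes, 28 had a log2 signal of 5 or more in 6 or more pigs, and 7 had not, among them ABCD2, GNPAT, FAR1, PEX5L, PEX7 and PEX11A.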

How the data were processed

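The authors hybridised liver RNA of each pig to an Affymetrix porcine gene array and summarised probes with RMA in Affymetrix Expression Console; the submitters' processing notes give its version as 1.4. The authors deposited log2 signals per transcript cluster, already background-corrected and normalized across arrays, and RMA is known to compress differences of dim clusters. The authors' own group averages, log ratios, fold changes and p-values in the same table were not used, and no raw probe intensity was used here. No genome build is named in the sources used here.

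Genes were taken by symbol and, for listed genes without a row, by the symbol in the mRNA entry. Where a gene had several clusters, the brightest on average was taken. The members and lists were chosen with earlier results of these data known. The 3 ribosomal RNA clusters of 25388 were left out. lmFit and eBayes of limma 3.58.1 (R 4.3.3) compared group PIV with group CON over 25385 clusters, with Benjamini-Hochberg adjustment over all of them, and was tested on simulated data. SE and 95% intervals are those of limma. The exact permutation test ran over all assignments of 6 of the 12 pigs, two-sided and unadjusted. Pen and litter were not terms of the model, and any likeness of pen mates would make the true p-values larger. Precision is limited by the number of arrays. Some genes of the set and of the further list are counted but not reported by name here, and the other members were all named. Ranges are given for genes past the filter and for the gene of highest signal in each role. For the docking proteins PEX13 and PEX14, whose mean signals were nearly equal, ranges of both are given. Values beyond that rule (such as AMACR, SCP2, PECR, PIPOX and DAO) were chosen after they were seen. Counts of clusters with a peroxisome term were added afterwards.

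The alternatives tried were robust estimation with a variance trend, the methods' t-test, weighted arrays, a limit on dim clusters, quantile normalization, equal array medians, the series value table (which differed by at most 0.005), the mean of all clusters of a gene, other FC limits, linear group means and leaving out each pig. Protein and promoter sequences were not used here.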

Additional observations from a re-analysis of the deposited data

Results flagged for a closer look

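Among 66 pairs of a gene and a group, 4 had a pig whose gap to the nearest of the other 5 took a share of the group's range above Dixon's 95% limit, which chance exceeds in about 1 of 20 groups. In group CON, K22 read 7.77 for ABCD3, where the others lay from 6.92 to 7.23. In group PIV, P10 read 9.88 for ACOX2 (others 9.50 to 9.63) and 9.13 for ACAA1 (others 8.64 to 8.77). For FAR1, P29 read 5.03, with the others of group PIV from 4.89 to 4.94.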

How the results depend on the processing

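Against 2 genes past the filter, the methods' t-test gave 1, a FC above 1.5 gave 0, and the fits without 1 pig gave 1 to 2. In the fits without 1 pig, 1.68% to 2.78% of all clusters passed. The share of all clusters is not given here for the t-test or the FC above 1.5. Counting only genes of the gene symbol column, an alternative chosen after seeing the data, gave 1, which leaves out ABCD3 by construction, and adding the peroxins named only through mRNA entries, also chosen afterwards, kept 2. Genes without overlap between groups numbered 0 to 1 without 1 pig: HACL1 without K3 and ABCD3 without K22, where 0.272% and 0.335% of all clusters separated. Of the further peroxisomal genes 0 to 1 passed without 1 pig, DAO without K22, a fit in which 2.21% of all clusters passed. No gene passed an adjusted limit of 0.05 under any alternative run. The median log2 FC ranged from -0.0135 to 0.0308. In 18 genes, none past the filter and none with a log2 FC over 0.1 in size, the sign changed under some alternative, and calls changed in 8 of 798 recomputed values, all of ABCD3 or HACL1. HACL1 left the filter only at a FC above 1.5. No paired analysis was run, because the piglets were allocated to the groups at random and the labels name no pairs across groups. A search of protein sequences for targeting signals was not run. The n of 6 limits what could be detected, and signal over background was not measured here.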

Other observations

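PIPOX, the peroxisomal oxidase of sarcosine and pipecolic acid, read 4.56 in the treated pig P50 and 6.25 to 7.72 in the other 11 pigs, a range of 3.17 on the log2 scale. Its log2 FC was -0.11 and its exact permutation p 0.913. DAO, the D-amino acid oxidase, read 9.29 in K22 and 9.26 in P30 against at most 8.86 in the other 10 pigs, with a log2 FC of 0.22 and an exact permutation p of 0.377.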
